A study of Gallus gallus with 6 samples.

Results

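The genes that carry bile acids through the absorptive cells of the intestine, and those through which bile acids act on transcription there, were examined in the jejunum of slow-growing Korat chickens. The 7 genes, of the 24356 listed, were chosen by their known roles, but with earlier results of these data known. They were SLC10A2 (uptake at the brush border), FABP6 (binding in the cytosol), SLC51A and SLC51B (export at the basal side), NR1H4 (the bile acid receptor), and NR0B2 and FGF19 (targets of that receptor). Poly(A) RNA from a whole section of the jejunum was sequenced with 1 library per bird. The study compared birds at the ends of the range of feed conversion ratio (FCR), the feed eaten per unit of weight gained, in which a low value marks an efficient bird. All 6 birds were of the Korat line, a cross of a Thai indigenous chicken with a broiler line, were 10 weeks of age and had fasted before sampling. They had been fed freely on the same diets, with 21%, 19% and 17% protein in succession. The low-FCR birds were L1, L2 and L3, and the high-FCR birds were H1, H2 and H3, so that FCR was what the labels set apart.

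The labels of 2 libraries need to be set out first. The title of H3 reads low-FCR in words, but by its code and in the study this bird belongs to the high-FCR group, and it was analysed as such. W-linked genes, which males lack, had 16140 counts in L1 and 48 to 80 counts in each other bird, although the study describes males. For this reason the differences between the groups are also given without L1 and H3. Total counts ranged from 10436038 to 11347158 in the low-FCR birds and from 11052723 to 11370043 in the high-FCR birds. Levels are given as counts, as CPM (counts scaled to a common library size after TMM normalization) or, where genes are compared with each other, as FPKM, which also divides by the exonic length.

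In birds as in mammals, bile acids are made in the liver from cholesterol, released into the gut to disperse fat, and largely taken back by enterocytes towards the end of the small intestine. In mammals the sodium-dependent transporter encoded by SLC10A2 and the binding protein encoded by FABP6 are most abundant in the ileum, the segment after the jejunum. Bile acids that enter the cell bind the nuclear receptor encoded by NR1H4 (FXR), which in mammals activates FABP6, SLC51A, SLC51B, NR0B2 and FGF19, and FGF19 then travels to the liver to restrain bile acid synthesis.

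All 7 genes were detected, 6 of them in every bird, and had a mean FPKM of at least 0.5, the minimum for a gene to be tested, which 14282 genes reached. None of the 7 passed the test between low-FCR and high-FCR birds after adjustment over all genes (edgeR's quasi-likelihood test with Benjamini-Hochberg adjustment, adjusted p = 0.997 for each). Of all 14282 genes, 0 passed (0%), against 8 with DESeq2. At an unadjusted p under 0.05, 0 of the 7 and 463 of all genes passed (3.24%, with 2.02% higher and 1.22% lower in the low-FCR birds). The groups of birds overlapped for each of the 7 genes, while 909 of all genes had no overlap (6.36%). The mean level was higher in the low-FCR birds for 6 of the 7 genes and lower for NR0B2, against 51.8% of all genes higher. What the data show for these genes is therefore mainly how far single birds lay from each other, as the plot of CPM by bird shows.

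**Figure D1:**
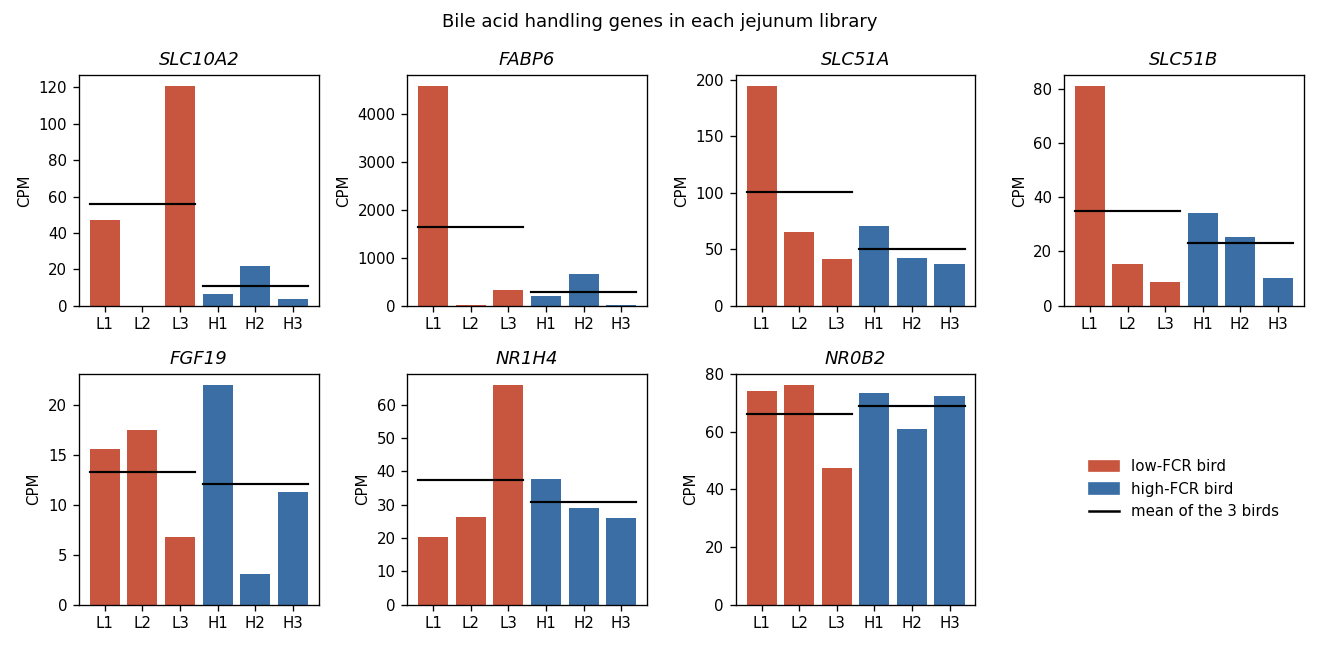
CPM of the 7 genes in each bird, with 1 bar per bird, low-FCR birds left of high-FCR birds, and a black line at the mean of each group of 3. FABP6 stood at 4580 CPM in L1 and at 13.5 CPM in L2, while NR0B2 lay between 47.5 and 76.3 CPM in all 6 birds.

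SLC10A2, the transporter that takes bile acids up from the gut lumen, had 467, 0 and 1324 counts in L1, L2 and L3, against 74, 262 and 41 counts in H1, H2 and H3. L3 and L1 were the highest birds and L2, in the same group, was the lowest, so the high-FCR birds lay inside the range of the low-FCR birds. With 3 counts (0.267 CPM) taken as the limit for the 0 counts in L2, L3, at 121 CPM, stood 452-fold above that limit. Within the high-FCR group the highest bird was 6.02-fold above the lowest. The means were 56.1 ± 60.9 CPM in low-FCR birds and 10.6 ± 9.74 CPM in high-FCR birds (SD, n = 3 each). The log2 FC, low-FCR over high-FCR, was 2.40 with a standard error of 1.43 and a 95% interval from -0.85 to 5.65. Without L2, the bird with 0 counts, the edgeR p of SLC10A2 was 0.0036 and its adjusted p 0.359. In that fit 1416 of the 14282 genes had an unadjusted edgeR p under 0.05, against 463 with all birds. Without L3 the log2 FC of SLC10A2 was 1.15. With limma-voom in place of edgeR the log2 FC was -0.43. SLC10A2 (ENSGALG00000016858) lies at chr1:144099552-144110941 on the plus strand of GRCg6a.

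FABP6, which encodes the cytosolic protein that binds bile acids after uptake, had, with SLC10A2, the widest spread of the 7 genes. It had 45215, 151 and 3596 counts in L1, L2 and L3, against 2217, 7865 and 160 counts in H1, H2 and H3. L1 stood far above every other bird, L2 and H3 stood far below, and each group held both a high and a low bird. In L1 the gene took 0.398% of all counts and its 3084 FPKM ranked 18th of all listed genes, whereas its 10.3 FPKM in L2 ranked 6892nd. L1 was 7.03-fold above H2, the next bird, and 340-fold above L2 in CPM. Among the high-FCR birds alone the highest was 46.3-fold above the lowest. Over all 6 birds the SD of the log2 level was 3.25, against a median of 0.41 over all genes tested, and only 4 of the 14282 genes had a larger one. That of SLC10A2 was 2.82 with its 0 counts in L2 set at 0.5 CPM, so the order of these 2 genes depends on the value added.

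Between the groups, FABP6 averaged 1641 ± 2551 CPM in low-FCR birds and 286 ± 329 CPM in high-FCR birds (SD, n = 3 each). Its log2 FC was 2.52 with a standard error of 1.70, a 95% interval from -1.35 to 6.39 and an edgeR p of 0.174. This sign rested on L1: the log2 FC was -0.74 without L1, and 3.99 without H2. With limma-voom in place of edgeR it was 1.19. FABP6 (ENSGALG00000001445) lies at chr13:8593917-8632025 on the minus strand of GRCg6a, 68 bases from PWWP2A on the other strand, and whether reads were counted by strand is not given in the sources used here.

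SLC51A and SLC51B encode the alpha and beta subunits of the organic solute transporter, which work as a pair to release bile acids from the cell towards the blood. SLC51A had 1923, 733 and 451 counts in L1, L2 and L3, against 808, 510 and 425 counts in H1, H2 and H3. L1 was the highest bird, and the other 5 birds lay between 37.4 and 70.3 CPM. The means were 100.4 ± 82.6 CPM in low-FCR birds and 50.0 ± 17.8 CPM in high-FCR birds (SD, n = 3 each). The log2 FC of SLC51A was 1.01 with a standard error of 0.54 and an edgeR p of 0.0959, the smallest of the 7 genes. It was 0.09 without L1 and 1.38 without L3. In the fit without L3 the edgeR p of SLC51A was 0.0215, and it did not pass adjustment. There 474 of the 14282 genes had an unadjusted edgeR p under 0.05.

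SLC51B had 800, 171 and 95 counts in L1, L2 and L3, against 391, 307 and 117 counts in H1, H2 and H3. L1 was again the highest, but here H1 and H2 both lay above L2, and L3 was the lowest. The means were 35.0 ± 40.0 CPM in low-FCR birds and 23.3 ± 12.0 CPM in high-FCR birds (SD, n = 3 each), and the log2 FC was 0.59 with a standard error of 0.78 and an edgeR p of 0.470. Without L1 the log2 FC was -0.96, and without L3 it was 1.05. Both genes lie on the minus strand of GRCg6a, SLC51A (ENSGALG00000007478) at chr9:15076581-15078779 and SLC51B (ENSGALG00000044618) at chr10:18212963-18222747. SLC51B lies 247 bases from RASL12 on the other strand, and it carries no symbol in the deposited table, so it was found through the NCBI gene ID in its description.

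The alpha subunit was above the beta subunit in FPKM in every bird. The log2 ratio of SLC51A to SLC51B in CPM was 1.26, 2.06 and 2.18 in L1, L2 and L3, against 1.04, 0.72 and 1.81 in the high-FCR birds H1, H2 and H3. The groups overlapped through L1 and H3. The difference of 0.65 had p = 0.20 in a two-sided exact permutation test, which with 3 birds against 3 cannot give less than 0.10.

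NR1H4, which encodes the receptor FXR, varied less than the transport genes. It had 201, 294 and 724 counts in L1, L2 and L3, against 433, 349 and 297 counts in H1, H2 and H3. L3 was the highest bird and L1, the bird with the most FABP6 and SLC51A, the lowest. The 95% Poisson intervals of L1, at 20.4 CPM, and of H3, at 26.1 CPM, overlapped. Over all birds the log2 level of NR1H4 had Pearson's r = -0.0255 with FABP6 (exact permutation p = 0.96). This r was 0.559 without L1 and -0.286 without L3. With SLC51A, NR1H4 had r = -0.521 (exact permutation p = 0.261), which was -0.131 without L1 and -0.689 without H3. The means were 37.6 ± 24.9 CPM in low-FCR birds and 30.9 ± 6.03 CPM in high-FCR birds (SD, n = 3 each), with a log2 FC of 0.28 and a standard error of 0.43. Without L3 the log2 FC was -0.41. NR1H4 (ENSGALG00000011594) lies at chr1:47342861-47375651 on the plus strand of GRCg6a.

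NR0B2 encodes SHP, a nuclear receptor without a DNA-binding domain that represses other receptors. It had 731, 856 and 520 counts in L1, L2 and L3, against 842, 734 and 823 counts in H1, H2 and H3. These were the most even values of the 7 genes, with L3 the lowest bird and the highest only 1.61-fold above it, and 77.5% of all genes tested had a larger spread. The log2 FC of NR0B2 was -0.06 with a standard error of 0.25 and a 95% interval from -0.62 to 0.50, and it was 0.13 without L3. The gene (ENSGALG00000000887) lies at chr23:1920776-1923230 on the minus strand of GRCg6a.

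FGF19 encodes the hormone that carries the signal of bile acid uptake to the liver. It had 154, 196 and 74 counts in L1, L2 and L3, against 253, 37 and 128 counts in H1, H2 and H3. H1 was the highest bird and H2 the lowest, so the range of the low-FCR birds lay inside that of the high-FCR birds. H2, with the least FGF19, had the second highest FABP6, and L2, with the least FABP6, had the second highest FGF19. L1, with the most FABP6, lay between L2 and H3 in FGF19. Over all birds the log2 levels of FABP6 and FGF19 had Pearson's r = -0.239 (exact permutation p = 0.661). With single birds left out, r ran from -0.609 without L1 to -0.0242 without H2, so no inverse relation is read from these birds. The means were 13.3 ± 5.72 CPM in low-FCR birds and 12.1 ± 9.51 CPM in high-FCR birds (SD, n = 3 each), with a log2 FC of 0.13 and a standard error of 0.65. The log2 FC was -0.33 without H2 and 0.89 without H1. FGF19 (ENSGALG00000028376) lies at chr5:17813609-17818546 on the minus strand of GRCg6a.

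**Figure D2:**
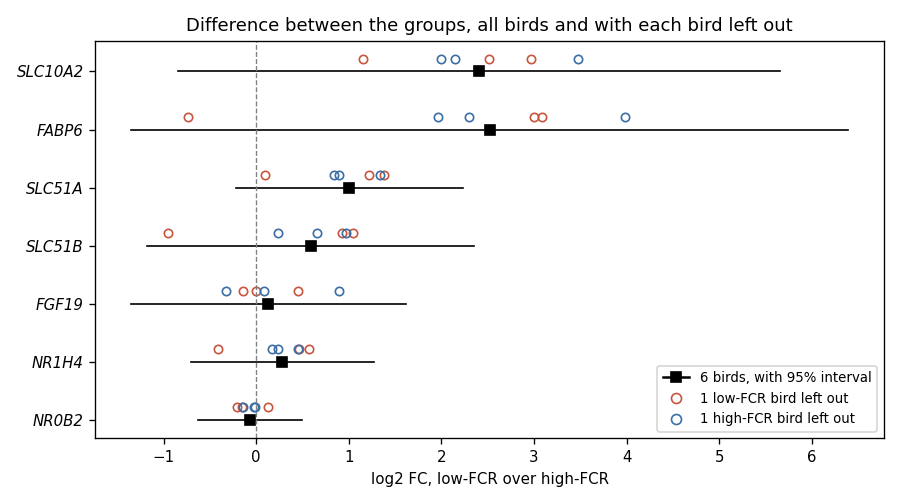
Log2 FC of the 7 genes, low-FCR over high-FCR birds, with all 6 birds (black squares, with 95% intervals as lines) and with each bird left out in turn (open circles, red for a low-FCR bird and blue for a high-FCR bird). All 7 intervals include 0, and the value of FABP6 is -0.74 with L1 left out.

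Leaving out both L1 and H3 gave log2 FCs of 2.11 for SLC10A2, -1.30 for FABP6, -0.07 for SLC51A, -1.31 for SLC51B, 0.48 for NR1H4, -0.11 for NR0B2 and -0.04 for FGF19. FABP6 and SLC51B, highest in L1, were thus below 0 in the remaining birds, and SLC51A, also highest in L1, hardly differed at -0.07. SLC10A2 kept its sign, but its low-FCR birds were then L2, with 0 counts, and L3, with 1324 counts. Its sign in that fit thus rested on L3. SLC51B had an edgeR p of 0.0162 in that fit and an adjusted p of 1. With H3 placed in the low-FCR group, as its title reads, the log2 FCs were 1.61 for SLC10A2, 1.55 for FABP6, 0.59 for SLC51A, -0.05 for SLC51B, 0.06 for NR1H4, 0.01 for NR0B2 and 0.03 for FGF19. The bird numbers in the titles form 2 series, of which one holds L1, L2, L3 and H1 and the other H2 and H3, so that no comparison can be made within the second. With the series as a term, the log2 FCs were 3.12 for SLC10A2, 3.09 for FABP6, 0.51 for SLC51A, 0.04 for SLC51B, -0.01 for NR1H4, -0.15 for NR0B2 and -0.73 for FGF19.

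Compared per length, the order of the genes differed between birds. FABP6 was the highest of the 7 in L1, L3, H1 and H2, from 155 to 3084 FPKM, but not in L2 and H3, where SLC51A, at 50.4 FPKM in L2, and NR0B2, at 35.8 FPKM in H3, were the highest. SLC10A2 was the lowest of the 7 in L2, H1 and H3, at 0, 2.18 and 1.17 FPKM. FGF19 was the lowest in L1, L3 and H2, at 6.00, 3.13 and 1.44 FPKM. Neighbouring birds in the order of a gene's level mostly differed by more than counting error for SLC10A2 and FABP6, where the only pair with overlapping 95% Poisson intervals was H3 and L2 for FABP6. For NR0B2, L2, L1, H1 and H3 each overlapped the next, for FGF19, H1, L2, L1 and H3 did, and for NR1H4, H2, L2, H3 and L1 did. For SLC51A the overlapping neighbours were H1 and L2, H2 and L3, and L3 and H3, and for SLC51B they were H3 and L3. Overlap of the intervals does not show that such neighbours differ by counting error alone.

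The birds that were high for one gene were not the same for all. FABP6, SLC51A and SLC51B were highest in L1, SLC10A2 and NR1H4 in L3, NR0B2 in L2 and FGF19 in H1. L1 was the highest bird for 26.1% of all genes tested and L3 for 22%. Among the 21 pairs of genes, the log2 levels of SLC51A and SLC51B had the largest positive correlation over the 6 birds, with Pearson's r = 0.872 (exact permutation p = 0.0194, adjusted p = 0.408 over the 21 pairs) and Spearman's rho = 0.886 (exact permutation p = 0.0333, adjusted p = 0.613). Without L1 and H3, the birds farthest from the median of SLC51A, r was 0.493. It was 0.612 without L1 alone and 0.846 without H3 alone. FABP6 and SLC10A2, the binding protein and the uptake transporter, had r = 0.792 (exact permutation p = 0.0597, adjusted p = 0.418) and rho = 0.829 (exact permutation p = 0.0583, adjusted p = 0.613), and r = 0.672 without L1 and L2.

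NR1H4 and NR0B2, the receptor and its target, had r = -0.827 (exact permutation p = 0.05, adjusted p = 0.418) and rho = -0.6 (exact permutation p = 0.242, adjusted p = 0.678), with r = -0.583 without L3 and H1 and r = -0.184 without L3 alone. No pair passed after adjustment, and the groups of 3 birds are too small for a value within each. The log2 ratio of FABP6 to SLC10A2, of CPM + 0.5, was 6.58, 4.80 and 1.44 in L1, L2 and L3, against 4.80, 4.88 and 1.83 in the high-FCR birds H1, H2 and H3. The value of L2 is set by the 0.5 added, since it had 0 counts of SLC10A2, and is no measured ratio. L3 and H3 had the lowest ratios of the other 5 birds. The difference between the groups was 0.44 (two-sided exact permutation p = 0.90), and it was 1.13 with 0.1 and 0.027 with 2 added to the CPM, so no size is read from it.

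**Figure D3:**
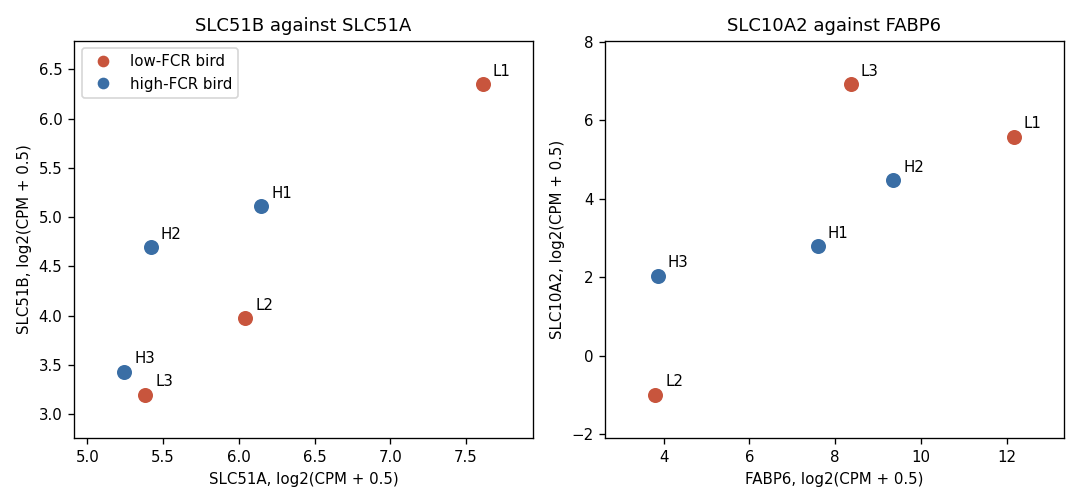
Log2(CPM + 0.5) of SLC51B against SLC51A (left) and of SLC10A2 against FABP6 (right), with 1 point per bird, red for low-FCR and blue for high-FCR birds. Over 6 birds r was 0.872 on the left, where L1 lies apart, and 0.792 on the right, where L2 (0 counts of SLC10A2) lies lowest.

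Genes with a pattern over the birds like that of SLC10A2 or FABP6 were looked for among 11491 genes with a symbol and a mean of at least 20 counts, by the root mean square (RMS) difference of their centred log2 levels. The gene most like SLC10A2 was SLC5A12, a sodium-coupled carrier of lactate and other monocarboxylates, with an RMS difference of 0.70. It had 288, 5 and 1809 counts in L1, L2 and L3, against 77, 137 and 20 counts in H1, H2 and H3. L3 was its highest bird and L2 its lowest, as for SLC10A2. Next came TMIGD1, an adhesion protein of epithelial cells (1.05), and SLC26A3, a chloride-bicarbonate exchanger (1.15), which had 568, 3 and 3439 counts in low-FCR birds, against 31, 138 and 6 counts in high-FCR birds. The set of 10 also held FOXD1, HSPB9, HOXC9, TMEM252, SSTR3 and MYOC.

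The gene most like FABP6 was SLC5A11, a sodium-coupled inositol carrier, with an RMS difference of 1.26. It had 1222, 57 and 499 counts in L1, L2 and L3, against 572, 655 and 8 counts in H1, H2 and H3. The set also held NOXO1, a subunit of an NADPH oxidase (1.50), SLC13A2, a dicarboxylate carrier (1.52), TMIGD1, HOXC9, HOXC8, FOXD1, TMEM252 and LOC415662. The sets for FABP6 and SLC10A2 shared 5 of their 10 genes each. HOXC8 and HOXC9 also belong to the list of distal small intestine markers.

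For SLC51A the RMS differences were smaller, but so was its own SD of the log2 level, at 0.88, against 2.82 for SLC10A2 and 3.25 for FABP6. The RMS difference is not scaled by that SD, so closeness of match is not compared between these genes. MYO6, a myosin motor of the brush border, had an RMS difference of 0.18, LGALS2, a galectin, 0.19 and FABP3, a fatty acid binding protein, 0.20. LGALS2 had 12406, 4611 and 3354 counts in L1, L2 and L3, against 5556, 4793 and 3198 counts in H1, H2 and H3. The set, chosen for likeness to a gene highest in L1, also held TMEM35B, SMPX, HSD17B1, SLC6A8, TMPRSS7, HIGD2A and MZT2B.

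**Figure D4:**
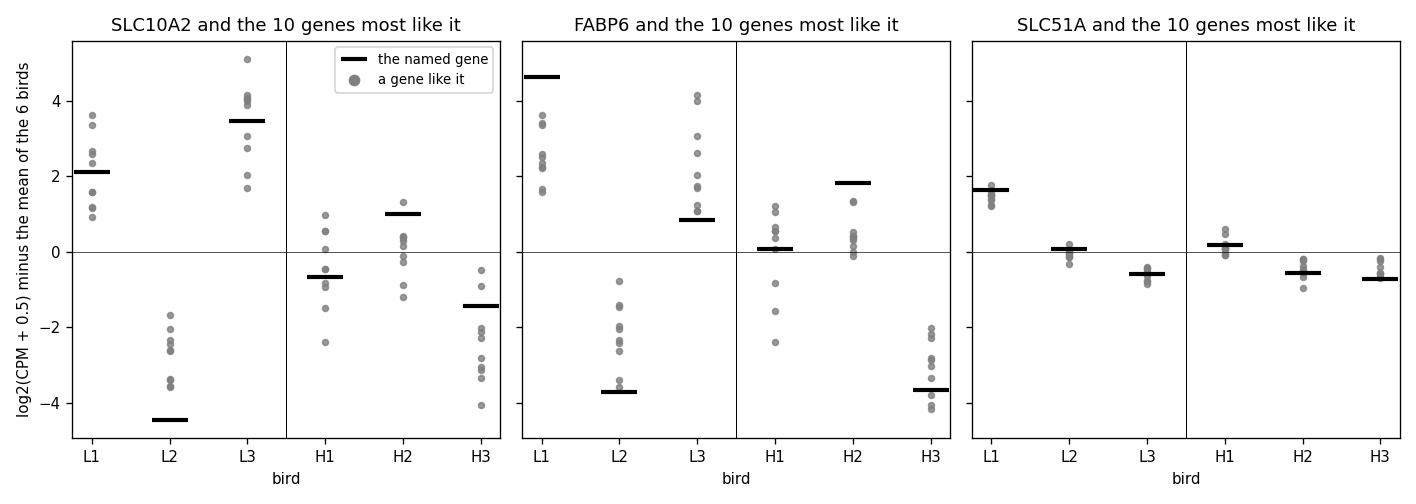
Log2(CPM + 0.5) minus the mean of the 6 birds for SLC10A2, FABP6 and SLC51A (black dashes) and for the 10 genes most like each (grey points), with low-FCR birds left of high-FCR birds. The RMS differences, which are not scaled by the spread of the named gene, ran from 0.18 to 0.26 for SLC51A, 0.70 to 1.48 for SLC10A2 and 1.26 to 1.76 for FABP6.

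The tissue was labelled jejunum, and the markers of the gut segments and cell types were read in each bird as the mean log2 level of a list around the mean of the 6 birds. Enterocyte markers (22 genes, among them APOA1, EPCAM and FABP2) were abundant in every library, with summed levels from 10736 to 22599 CPM in low-FCR birds and from 6264 to 20366 CPM in high-FCR birds. Their mean log2 level was 0.56, 0.60 and -0.32 in L1, L2 and L3, against 0.66, -0.22 and -1.28 in the high-FCR birds H1, H2 and H3. H3 was the bird with the least enterocyte transcript, and L2, with 0 counts of SLC10A2 and the least FABP6, had nearly the most. In a whole piece of tissue, fewer cells of a type and less RNA per cell cannot be told apart.

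Markers of the distal small intestine other than the 7 genes, of which 16 of 28 passed the filter, had mean log2 levels of 1.39, -0.42 and 0.37 in L1, L2 and L3, against 0.58, -0.12 and -1.80 in the high-FCR birds H1, H2 and H3. As for FABP6, L1 was highest and H3 and L2 were lowest. Their summed level was 608 to 2548 CPM in low-FCR birds and 154 to 1166 CPM in high-FCR birds. Of the list, 14 genes were higher in the low-FCR birds and 2 were lower, with a median log2 FC of 1.01 against 0.02 over all genes, and 0 had an unadjusted p under 0.05. Its most abundant genes were ENPP7, an alkaline sphingomyelinase that cleaves dietary sphingomyelin in the presence of bile salts, MEP1A, a brush border protease, and NTS, the hormone neurotensin. In L1, ENPP7 and MEP1A stood at 1107 and 821 CPM, so the summed level there was mostly that of these enzymes. Whether they mark the distal part of the chicken intestine was not tested, so the sum is not read as position. ENPP7 had 10924, 1196 and 81 counts in L1, L2 and L3, against 2803, 1359 and 9 counts in H1, H2 and H3, so it was low in L3, where SLC10A2 was highest. NTS had 546, 731 and 811 counts in low-FCR birds, against 1173, 1175 and 522 in high-FCR birds, so H1 and H2 were its highest birds.

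HOXC9, a homeobox gene of posterior segments, had 118, 1 and 104 counts in L1, L2 and L3, against 24, 21 and 0 counts in H1, H2 and H3. L2 and H3 were thus near 0 for it. HOXC9 was among the 10 genes most like SLC10A2 and among those most like FABP6, so its likeness to them follows from that choice. Other homeobox genes of the list were named after their values were seen. HOXA9 had 47, 4 and 118 counts in low-FCR birds, against 21, 12 and 1 counts in high-FCR birds. HOXA10 and HOXA13, under the filter, had 2 to 7 counts in L1 and L3 and 0 in the other 4 birds. HOXA7 had 794, 226 and 652 counts, against 405, 362 and 193. HOXC8 had 482, 58 and 571 counts, against 277, 245 and 16. HOXD8 had 21, 1 and 34 counts, against 10, 2 and 7. HOXB8 had 104, 47 and 85 counts, against 72, 49 and 52. HOXB7 had 334, 176 and 382 counts, against 219, 164 and 239, so H3 was not low for it. L1 and L3 were the highest birds in CPM for every tested HOX gene of the list, while the lowest bird differed between them. Under the filter, HOXB9 had 3, 1 and 4 counts in low-FCR birds, against 7, 0 and 0 in high-FCR birds. HOXD10, also under it, had 0, 0 and 2 counts, against 4, 0 and 0. HOXA11, HOXB13, HOXC10, HOXD12 and HOXD13 had 0 or 1 count in every bird. Markers of the proximal small intestine (19 genes, led by FABP1, RBP2 and FABP2) had mean log2 levels of 0.29, 0.38 and -0.27 in L1, L2 and L3, against 0.39, -0.25 and -0.54 in the high-FCR birds H1, H2 and H3. The range of these means was far smaller than that of the distal list. Single genes of the proximal list still varied widely, such as APOA4 from 59.4 CPM in H3 to 1231 CPM in H1. Smooth muscle markers (11 genes, led by ACTG2, DES and TAGLN) stood at 1.01, -0.74 and -0.16 in low-FCR birds, against 0.48, -0.49 and -0.10 in high-FCR birds, so that L1 held the most and L2 the least of these as well. The part of the sampled position and of the cell composition in the levels of the 7 genes was not tested.

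**Figure D5:**
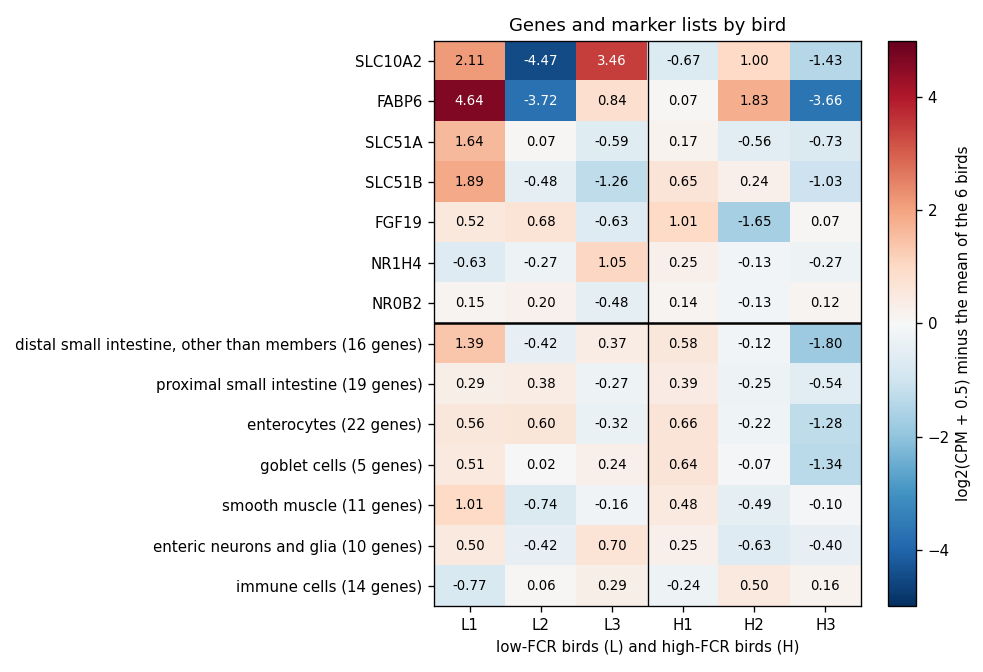
Log2(CPM + 0.5) minus the mean of the 6 birds for the 7 genes (above the line) and for lists of marker genes, as the mean over the genes of each list (below it), with low-FCR birds left of high-FCR birds. The mean of the distal list is highest in L1 (1.39) and lowest in H3 (-1.80), while the mean of the proximal list, whose single genes vary more, stays between -0.54 and 0.39.

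Setting each gene against the enterocyte markers of the same library left the wide spread of FABP6 and SLC10A2 in place. The SD of the log2 level over the 6 birds was 3.06 for FABP6 relative to the markers, against 3.25 for its plain level, and 3.02 for SLC10A2, against 2.82. For SLC51A it was 0.66 relative to the markers, against 0.88, and for SLC51B 0.91, against 1.18. For NR1H4 and NR0B2 it was larger relative to the markers, at 1.02 and 0.72, against 0.59 and 0.26 for their plain levels.

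The difference of the relative log2 level, low-FCR minus high-FCR birds, was 0.61 for FABP6 and 0.17 for SLC10A2 (two-sided exact permutation p = 0.90 for each), 0.18 for SLC51A (exact p = 0.70) and -0.47 for SLC51B (exact p = 0.60). It was -0.46 for NR1H4 (exact p = 0.60), -0.65 for NR0B2 (exact p = 0.40) and -0.18 for FGF19 (exact p = 0.80). Each of these differences was smaller than the SD of at least one of the groups.

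Other genes of bile acid synthesis and conjugation were measured as a list. CYP7A1, the rate-limiting enzyme of the main pathway in the liver, named after its values were seen, had 2 to 7 counts in low-FCR birds and 1 to 3 counts in high-FCR birds and was under the filter. Of the 14 genes tested, 8 were higher and 6 lower in the low-FCR birds, 0 had an unadjusted p under 0.05, and the median log2 FC was 0.05. AKR1D1, the reductase that shapes the steroid ring of bile acids, had 1106, 1006 and 67 counts in L1, L2 and L3, against 327, 957 and 391 counts in H1, H2 and H3. BAAT, which joins bile acids to amino acids, had 2226, 1814 and 674 counts in low-FCR birds, against 1296, 1271 and 1060 counts in high-FCR birds. Both were lowest in L3, the bird with the most SLC10A2. The other abundant genes, SCP2, SLC27A2, HSD17B4 and EHHADH, which also serve fatty acid metabolism in peroxisomes, had log2 FCs from -0.19 to 0.30.

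Of the other transporters of bile acids, sterols and conjugates, 15 were tested, with 6 higher, 9 lower, 0 at an unadjusted p under 0.05 and a median log2 FC of -0.04. ABCG5, which with ABCG8 returns sterols to the lumen, had 480, 1537 and 318 counts in L1, L2 and L3, against 878, 776 and 331 counts in H1, H2 and H3. ABCC2, an exporter of conjugates at the brush border, had 614, 745 and 1795 counts in low-FCR birds, against 1385, 915 and 194 counts in high-FCR birds. L3 was its highest bird, as for SLC10A2 and NR1H4, and H3 its lowest. SLCO2B1, ATP8B1, SLCO2A1 and ABCG2 lay between ABCG5 and ABCC2 in mean FPKM. Of these, SLCO2A1 was highest in L3, SLCO2B1 in L1, and ATP8B1 and ABCG2 in H1, with ATP8B1 lowest in L3. ABCC3, a basal exporter that can carry bile acids, was named after its values were seen as the one gene of the list without overlap: it had 34.3 to 53.3 CPM in low-FCR birds and 55.7 to 56.2 CPM in high-FCR birds (log2 FC -0.33). Of all genes tested, 6.36% had no overlap. The adjusted p of ABCC3 was 0.997 in edgeR.

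Among 31 partners of the bile acid receptor and related regulators, 18 were higher and 13 lower, with a median log2 FC of 0.07. PPARA, a receptor for fatty acids that governs their oxidation, was the only gene of this list with an unadjusted edgeR p under 0.05, against 3.24% of all genes. It had 180, 284 and 230 counts in L1, L2 and L3, against 195, 124 and 90 counts in H1, H2 and H3. In CPM its groups did not overlap, as for 6.36% of all genes, with 18.2 to 25.3 CPM in low-FCR birds and 7.92 to 17.0 CPM in high-FCR birds. Its log2 FC was 0.88 with a standard error of 0.36, and its adjusted p of 0.997 (edgeR, Benjamini-Hochberg) did not pass. The most abundant of the regulators were GATA5, GATA6, NR2F2, CDX2 and HNF4beta, with log2 FCs from -0.40 to 0.83. GATA4, which in mice keeps ileal genes such as Slc10a2 and Fabp6 silent in the jejunum, was named after its values were seen. It had 320, 1080 and 222 counts in L1, L2 and L3, against 1289, 761 and 745 counts in H1, H2 and H3. L3 was its lowest bird and H1 its highest. L3 and L1 held the least GATA4, at 20.3 and 32.4 CPM, and the most SLC10A2, at 121 and 47.3 CPM. Their FABP6 stood at 328 and 4580 CPM. L2, at 96.3 CPM of GATA4, had 0 counts of SLC10A2 and the least FABP6, at 13.5 CPM. H1, at 112 CPM of GATA4, had 6.44 CPM of SLC10A2 and 193 CPM of FABP6. H2 and H3 lay close to each other in GATA4, at 63.1 and 65.6 CPM. SLC10A2 stood at 21.7 and 3.61 CPM and FABP6 at 652 and 14.1 CPM in these birds. Low values in L1 and L3 were not particular to GATA4. HNF4A, also named after its values were seen, stood at 17.83 and 12.96 CPM there, against 58.96 to 71.59 CPM in the other birds. HNF4G, named likewise, was also lowest in L1 and L3, at 19.35 and 26.02 CPM. NR2F2 went the other way and was highest in L1 and L3, at 288.6 and 280.8 CPM. Whether GATA4 or any of these regulators bears on the levels of SLC10A2 and FABP6 was not tested.

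On the side of FGF19 signalling, 12 genes were tested, with 6 higher, 6 lower, 0 at an unadjusted p under 0.05 and a median log2 FC of -0.02. FGFR4, the receptor of FGF19 in the liver, had 899, 837 and 1074 counts in L1, L2 and L3, against 819, 913 and 686 counts in H1, H2 and H3. Its level was even across the birds. KLB, its co-receptor, was named after its values were seen and ranged more widely, with 123, 385 and 190 counts in low-FCR birds, against 594, 339 and 57 counts in high-FCR birds. The other abundant genes, GRB2, FGFR3, SHC1, FGFR2 and FRS3, had log2 FCs from -0.33 to 0.36.

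FABP6 belongs to the family of fatty acid binding proteins, of which 11 other members and related retinoid binding proteins were tested. Of these, 8 were higher and 3 lower in the low-FCR birds, with a median log2 FC of 0.69. An unadjusted edgeR p under 0.05 was reached by 3 of the 11 (LBFABP, FABP4 and RBP7), against 3.24% of all genes. None of these passed adjustment (adjusted p = 0.997, edgeR). LBFABP, the basic liver protein of birds that binds bile acids, had 60, 5 and 86 counts in L1, L2 and L3, against 5, 10 and 9 counts in H1, H2 and H3. L1 and L3 were the high birds and L2 was low, as for SLC10A2. FABP4, of fat cells and vessels, had 75, 40 and 231 counts in low-FCR birds, against 34, 41 and 39 counts in high-FCR birds. In CPM its groups did not overlap, as for 6.36% of all genes, though L2, at 3.57 CPM, was close to H3, at 3.43 CPM. RBP7, a retinoid binding protein, had 11, 9 and 171 counts in low-FCR birds, against 13, 7 and 11 counts in high-FCR birds. By mean FPKM the most abundant of the list were FABP1 (1296), RBP2 (1263) and FABP2 (571). RBP2 was highest in H1 and lowest in L3. FABP1 had 8488, 8174 and 3685 counts in L1, L2 and L3, against 16470, 5745 and 3078 counts in H1, H2 and H3. H1 was its highest bird and H3 its lowest. FABP2 had 12344, 4624 and 5017 counts in low-FCR birds, against 9793, 2409 and 790 counts in high-FCR birds. It was highest in L1, as FABP6 was, and lowest in H3, while L2, the lowest bird for FABP6, lay in the middle of its range.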

How the data were processed

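Reads were trimmed (Cutadapt 1.9.1), aligned to GRCg6a (HISAT2 2.0.1) and counted per Ensembl gene (HTSeq 0.6.1) by the authors, with strand settings not given in the sources used here. The deposited table holds these counts and FPKM, which the authors derived from the counts, exonic sizes and library totals, as was checked on the values.

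Counts were analysed in R 4.3.3 with edgeR 4.0.16 (TMM, quasi-likelihood test, Benjamini-Hochberg adjustment over genes whose mean FPKM reached 0.5) and tested on simulated data. A count of 3 equals 0.249 to 0.304 CPM, and this limit and the Poisson intervals describe counting error alone. The 7 genes and the lists were chosen with earlier results of these data known. For each pathway list up to 6 genes were named, by unadjusted p under 0.05 and then by mean FPKM. For each marker list up to 3 were named, by mean FPKM. For FABP6, SLC10A2 and SLC51A the 10 most alike genes were named, except 1 gene that is not reported here. RefSeq names served for SLC51B. Alternatives were DESeq2 1.42.0, limma 3.58.1 on log2(FPKM + 0.5) or log2(FPKM + 0.1), limma-voom, other scalings, filters, pseudocounts and reference markers, a replicate block, H3 regrouped, L1 and H3 left out, the series of bird numbers as a covariate, and each bird left out. The numbers were not taken to pair the birds, since deviations of same-numbered birds correlated only weakly, though this does not settle the point. No promoter or protein sequences were used here.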

Additional observations from a re-analysis of the deposited data

How the results depend on the processing

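None of the 7 genes was called at an adjusted p under 0.05 in edgeR, DESeq2 or limma under any alternative run. Over all genes, edgeR called 0, DESeq2 8, limma on log2(FPKM + 0.1) 7 and edgeR with the replicate block 2. In the fit with the replicate block, SLC51A had a log2 FC of 0.75 and an edgeR p of 0.0371 (adjusted p = 0.997), and no other gene of the 7 had an unadjusted p under 0.05. Deviations of same-numbered birds correlated at 0.0054 to 0.185, and those of differently numbered birds at -0.263 to 0.109. With so few birds this does not settle whether the numbers pair them. Signs turned in several fits: in the log2 FC of FABP6 without L1 and H3 (-1.30), of SLC10A2 in limma-voom (-0.43), of SLC51A without L1 and H3 (-0.0722), of SLC51B in limma on log2(FPKM + 0.1) (-0.0067), with H3 as low-FCR (-0.0476) and without L1 and H3 (-1.31), of FGF19 without L1 and H3 (-0.0424) and with the number series as a term (-0.73), of NR1H4 with that term (-0.0051) and of NR0B2 with H3 as low-FCR (0.0108). Leaving out each bird gave log2 FCs from -0.74 to 3.99 for FABP6, 1.15 to 3.48 for SLC10A2, 0.0895 to 1.38 for SLC51A, -0.96 to 1.05 for SLC51B, -0.33 to 0.89 for FGF19, -0.41 to 0.57 for NR1H4 and -0.21 to 0.13 for NR0B2. Relative to enterocyte markers, the difference turned with H3 as low-FCR for FABP6 (-1.10), FGF19 (0.81), NR1H4 (0.24) and NR0B2 (0.32), and for the log2 ratio of FABP6 to SLC10A2 (-1.18). It turned with CPM + 0.1 for SLC10A2 (-0.52), with EPCAM alone for SLC51B (0.0043), FGF19 (0.29) and NR1H4 (0.013), and with VIL1 alone for FGF19 (0.28). With each bird left out it ran from -1.28 to 2.92 for FABP6, -1.67 to 2.75 for SLC10A2, -0.32 to 0.50 for SLC51A, -1.25 to -0.0408 for SLC51B, -0.94 to 0.45 for FGF19, -1.26 to 0.0183 for NR1H4 and -1.07 to -0.11 for NR0B2, from -0.71 to 1.86 for the ratio of FABP6 to SLC10A2 and from 0.41 to 0.96 for that of SLC51A to SLC51B. The causes were not tested. Depth limits mainly SLC10A2 in L2, with 0 counts, where the limit of 3 counts equals 0.267 CPM. The 3 birds per group set the width of the intervals.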

Other observations

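Only 4 genes had a larger spread of the log2 level over the 6 birds than FABP6. Of these, Wpkci-7 and LOC107049046 lie on chromosome W, with 5971 and 1370 counts in L1 and 0 to 5 counts in each other bird. The other 2 were ENPP7, described above, and SLC26A3, the chloride-bicarbonate exchanger that was also among the genes most like SLC10A2. L1 and L3 stood in opposite order for these: ENPP7 had 10924 counts in L1 and 81 in L3, whereas SLC26A3 had 568 counts in L1 and 3439 in L3. These genes were named after their values were seen.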
